A study of Mus musculus with 8 samples.

Results

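Mouse genes named Zfp and a 3-digit number were followed in peritoneal macrophages before and after stimulation with lipopolysaccharide (LPS). Each gene was represented by the probe set of highest mean among those assigned to it alone, and was kept as a member where the second-highest of its 8 log2 values was 4 or more. The rule kept 132 of the 263 such genes measured, out of 18193 genes with a single symbol on the arrays and 12540 tested. The members were thus chosen by their level on these same arrays, and a gene that reached 4 only before LPS had to be lower afterwards. That was so for 13 members, whereas 4 members reached 4 only on arrays after LPS and 73 reached it on all 8 arrays. In the same way, 3 members reached 4 only on KO arrays and 3 only on WT arrays, which fixed part of their genotype difference.

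The 4 KO arrays held RNA from thioglycollate-elicited peritoneal macrophages labelled Zc3h12a-/-, unstimulated (0 h) or given LPS at 100 ng/ml for 1, 2 or 4 h. The 4 WT arrays held RNA from wild-type macrophages, elicited and stimulated in the same way for the same times. Neither genotype had an unstimulated array at 1, 2 or 4 h, so an effect of LPS cannot be told apart from one of time in culture. Zc3h12a encodes Regnase-1, an RNase that cleaves mRNAs of inflammatory proteins. Each genotype and time had 1 array, the labels give neither age nor number of mice, and nothing in them describes the deleted part of the gene, so genotype rests on the label alone. All 8 macrophage marker genes examined, among them Adgre1 and Csf1r, lay above background on all 8 arrays.

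C2H2 zinc finger proteins hold a zinc ion in each of a string of small folds, and many bind DNA through them. In mammals a large share carries a KRAB domain, which recruits Trim28 (KAP1) and the histone methyltransferase Setdb1, and such proteins silence transposable elements and genes nearby. Many of their genes arose by tandem duplication and stand side by side. Other members of the symbol series are not KRAB proteins and act in ribosome quality control, ribosome assembly, splicing or the mitotic spindle.

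The promoter windows of members that moved most within the first hour are shown as examples of the largest falls and rises at 1 h. Sequences are from RefSeq on GRCm38.p6, run 5′ to 3′ on the gene's own strand and cover 300 bases around an annotated start, most of them before it. Capitals mark a match to a motif searched on both strands. Zfp763 (chr17:33033332-33033631, minus strand) and Zfp157 (chr5:138441226-138441525, plus strand) fell furthest at 1 h and hold a YY1 match on the reverse strand close to the start. Zfp131 (chr13:119790683-119790982, minus strand, the upstream window of a pair) holds an NF-kB match, while Zfp800 (chr6:28261875-28262174, minus strand, 1 of 2 windows) and Zfp719 (chr7:43579336-43579635, plus strand) hold an NRF1 match. These 3 genes rose furthest at 1 h.
Zfp763: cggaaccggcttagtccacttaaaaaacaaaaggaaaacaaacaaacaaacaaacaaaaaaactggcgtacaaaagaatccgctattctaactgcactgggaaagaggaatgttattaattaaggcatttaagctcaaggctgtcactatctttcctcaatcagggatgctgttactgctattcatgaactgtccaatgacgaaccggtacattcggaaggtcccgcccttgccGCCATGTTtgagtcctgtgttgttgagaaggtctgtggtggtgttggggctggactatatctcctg
Zfp157: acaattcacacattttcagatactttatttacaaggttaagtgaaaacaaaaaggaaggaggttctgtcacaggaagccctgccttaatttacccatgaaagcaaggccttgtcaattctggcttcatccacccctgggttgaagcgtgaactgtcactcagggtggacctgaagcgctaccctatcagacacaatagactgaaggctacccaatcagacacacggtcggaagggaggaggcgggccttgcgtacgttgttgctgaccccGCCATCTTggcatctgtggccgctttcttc
Zfp131: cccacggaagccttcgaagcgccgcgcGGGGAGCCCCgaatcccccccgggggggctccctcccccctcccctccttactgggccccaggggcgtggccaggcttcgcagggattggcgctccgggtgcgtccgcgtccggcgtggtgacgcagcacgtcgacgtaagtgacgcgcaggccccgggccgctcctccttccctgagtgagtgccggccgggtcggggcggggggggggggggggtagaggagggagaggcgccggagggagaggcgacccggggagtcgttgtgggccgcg
Zfp800: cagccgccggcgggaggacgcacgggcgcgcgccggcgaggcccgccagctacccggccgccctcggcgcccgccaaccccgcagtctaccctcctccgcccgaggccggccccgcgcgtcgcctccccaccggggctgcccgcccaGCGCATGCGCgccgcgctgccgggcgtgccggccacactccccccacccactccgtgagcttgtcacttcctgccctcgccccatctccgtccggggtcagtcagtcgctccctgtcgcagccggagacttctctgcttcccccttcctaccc
Zfp719: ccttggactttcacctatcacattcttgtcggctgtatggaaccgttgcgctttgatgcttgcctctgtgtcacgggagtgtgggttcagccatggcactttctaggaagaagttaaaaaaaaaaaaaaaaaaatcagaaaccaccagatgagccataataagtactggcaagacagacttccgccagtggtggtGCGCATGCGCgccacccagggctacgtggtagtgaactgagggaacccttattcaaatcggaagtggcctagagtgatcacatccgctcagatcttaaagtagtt
The members' windows were as rich in CpG as those of tested genes in general. RefSeq windows were found for 108 members, 133 in all, and their median ratio of observed to expected CpG was 0.72, against 0.73 over the 12967 windows of genes tested and 0.38 over all 32851 windows. The YY1 letters AANATGGC occurred in 21 member windows (15.8%), in 7.97% of windows of tested genes and in 6.05% of all windows. Among windows of members that were lower at 1 h, 9 of 47 (19.1%) held them, as did 0 of 9 windows of members that were higher and 12 of 77 (15.6%) of those not called. These letters were shortened after the windows had been seen. The NRF1, NF-kB, SRF and interferon elements are given by name alone. NRF1 matches occurred in 3.01% of member windows, against 1.98% of windows of tested genes and 0.971% of all windows. NF-kB matches occurred in 3.01% of member windows, against 5.21% and 4.51%. For the cyclic AMP element TGACGTCA the shares were 2.26%, against 2.79% and 1.79%. For AP-1 (TGANTCA) they were 6.02%, against 5.66% and 7.81%. For the E-box CACGTG they were 8.27%, against 9.63% and 7.15%. For ETS (CCGGAAGT) they were 9.02%, against 7.31% and 3.89%. The interferon element (ISRE) was found in 2.26%, against 3.15% and 3.44%, TATAAA in 7.52%, against 8.27% and 13.6%, and the SRF motif in 1.50%, against 1.30% and 1.63%. Matches of different motifs may overlap, and a match describes these letters only.

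Across arrays the members ranged over most of the scale. Mean log2 values ran between 3.38 and 10.999, with a median of 4.95, and 113 members lay above background on every array, background being the brightest of 27 bacterial control probe sets on each array (2.96 to 3.26). The highest means belonged to Zfp263, a SCAN and KRAB zinc finger gene, at 10.999, to Zfp622, whose product takes part in maturation of the large ribosomal subunit, at 9.89, and to Zfp655, at 9.55. They were followed by Zfp281 at 8.87, Zfp384 at 8.82 and Zfp106 at 8.76. The lowest were Zfp637 at 3.38, Zfp935 at 3.40, Zfp579 at 3.48 and Zfp707 at 3.52. These are probe set readings, which do not rank transcripts of different genes. At the threshold, Zfp938, Zfp961 and Zfp395 were just inside, with second-highest values of 4.01, 4.03 and 4.05, and Zfp740, Zfp180 and Zfp983 were just outside, at 3.95, 3.95 and 3.99.

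A large part of the members was lower after 1 h of LPS, and a few were strongly higher. At 1 h, 47 members fell and 8 rose by limma with genotype as a block and Benjamini-Hochberg adjustment over all 12540 genes. Of all genes tested 10.5% were called, 6.62% lower and 3.85% higher, and of the 8653 genes that met the same level rule 14.3% were called, 8.76% lower and 5.51% higher. The members' share of lower calls was thus 35.6% and of higher calls 6.06%. The members' median log2 difference was -0.52, against -0.09 over all genes tested and -0.13 over genes at 4 or more. Among the 107 members that reached 4 on 2 arrays after LPS, a subset added after the data were seen, 30 fell and 8 rose, and the share lower was 28.0%, against 7.81% of the 8269 genes that met that rule.

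The largest falls at 1 h were shared by both genotypes. Zfp763 read 7.42, 4.63, 5.59 and 5.68 on the KO arrays of 0, 1, 2 and 4 h, and 7.68, 4.33, 5.50 and 5.78 on the WT arrays. Both arrays of 1 h were far below both arrays of 0 h, and the values regained part of the loss by 2 h without returning to it. The fall at 1 h was 8.38-fold (log2 difference -3.07, SE 0.16, adjusted p = 0.00016). Zfp790 read 5.98, 4.29, 5.26 and 5.83 (KO) and 6.17, 4.09, 5.03 and 5.72 (WT) at 0, 1, 2 and 4 h. It was lowest at 1 h in both genotypes and stood close to its 0 h values at 4 h. It was 3.69-fold lower at 1 h (log2 difference -1.88, SE 0.14, adjusted p = 0.000605), and its difference at 4 h was -0.30 (adjusted p = 0.126).

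Other early falls lasted through 4 h. Zfp157 read 5.70, 3.25, 3.75 and 3.87 at 0, 1, 2 and 4 h in KO macrophages, and 5.32, 3.55, 3.55 and 4.35 in WT. The 6 arrays after LPS all lay below both 0 h arrays. The fall was 4.33-fold at 1 h (log2 difference -2.11, SE 0.22, adjusted p = 0.0026). Zfp688 read 5.77, 4.04, 3.99 and 4.58 on the KO arrays of 0, 1, 2 and 4 h, and 6.37, 3.89, 4.16 and 5.12 on the WT arrays, with every array after LPS below both 0 h arrays. It was 4.3-fold lower at 1 h (log2 difference -2.10, SE 0.20, adjusted p = 0.00171). For Zfp958 the 1 h difference was -1.98 (SE 0.18, adjusted p = 0.0015), and for Zfp709 it was -1.82 (SE 0.11, adjusted p = 0.000325). Zfp472 and Zfp707 were at or below background on both 1 h arrays, so their falls are bounds: Zfp472 was at least 3.08-fold lower (adjusted p = 0.000237) and Zfp707 at least 3.63-fold lower (adjusted p = 0.000404). Zfp707 reached 4 only on the 0 h arrays, so by the member rule its values after LPS had to be lower. The Zfp707 probe set can match several transcripts, and with such probe sets left out the gene's adjusted p was 0.343 at 1 h, 0.765 at 2 h and 0.518 at 4 h.

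**Figure D1:**
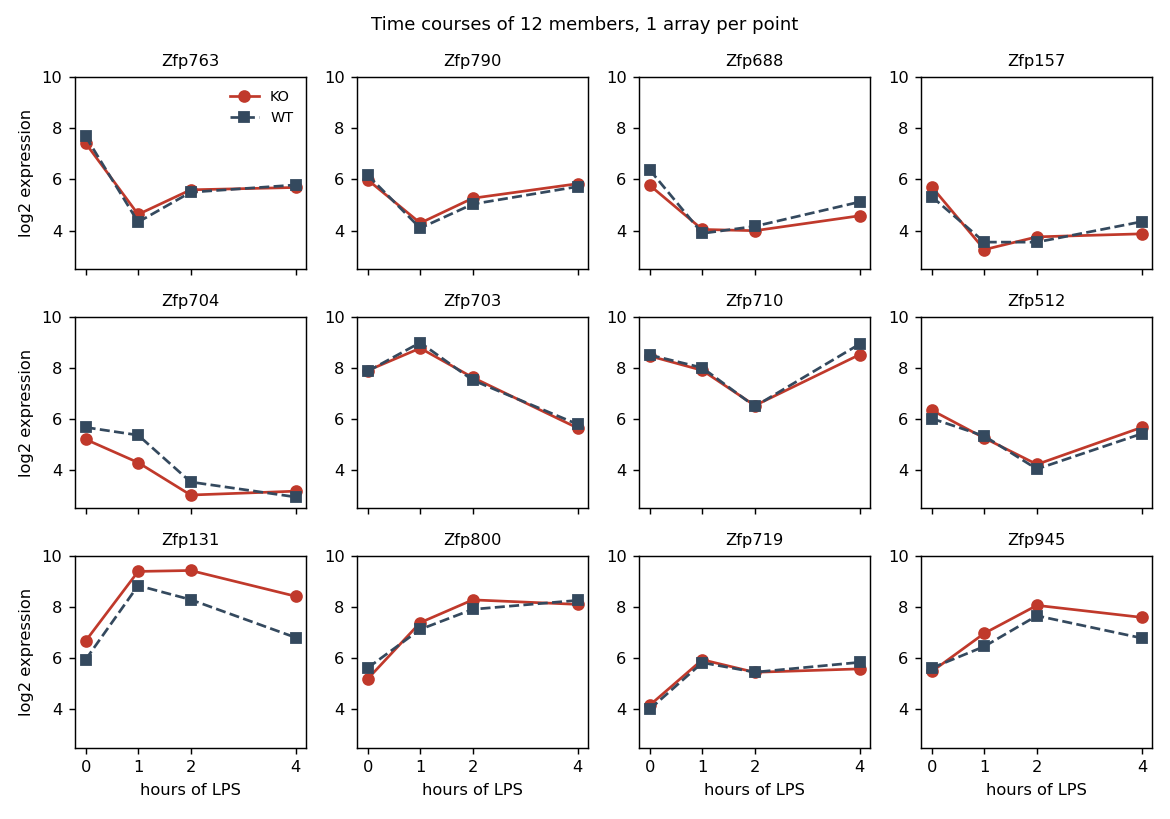
Log2 expression of 12 members against hours of LPS, with 1 array per point, circles and solid lines for KO and squares and dashed lines for WT. The upper panels hold members lowest or near lowest at 1 h, the middle ones members with their lowest values at 2 or 4 h, and the lower ones members that rose; Zfp763 read 4.63 (KO) and 4.33 (WT) at 1 h, against 7.42 (KO) and 7.68 (WT) at 0 h.

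By 2 h more members were lower, as were more genes on the arrays. At that time 75 members fell (56.8%) and 11 rose (8.33%), whereas 41.8% of all genes tested were called, 29.8% lower and 12% higher, and 54.1% of genes at 4 or more were called, 38.5% lower and 15.5% higher. The median difference was -0.66 for the members, against -0.16 for all genes tested. Among the members that reached 4 on 2 arrays after LPS, 54 of 107 fell (50.5%), against 37.1% of all such genes. At 4 h, 63 members fell (47.7%) and 17 rose (12.9%). Of all genes tested 43.8% were called at 4 h, 29.4% lower and 14.4% higher, and of genes at 4 or more 58.3% were called, 38.7% lower and 19.7% higher, and the medians were -0.51 for the members and -0.12 for all genes. In the subset of 107 members, 46 fell at 4 h (43.0%), against 37.5% of all such genes, so the members' share of falls stood further from the background at 1 h than at 4 h; that change over time was not tested.

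The direction at 4 h depended on the scaling. With each array centred on the median of 8 housekeeping genes, those measured of 12 listed, the all-gene median difference at 4 h was 0.53, and 47 members were then called higher and 29 lower, with a member median of 0.14. On the deposited scale Tbp and Ywhaz were higher at 4 h than at 0 h in both genotypes, and the rest of the 8 were lower. Polr2a fell most, from 8.73 to 7.29 in KO and from 8.63 to 6.96 in WT. Which scaling is nearer the truth was not tested. With that centring the splits were 10 higher and 39 lower at 1 h, and 20 higher and 53 lower at 2 h, with all-gene medians of 0.09 and 0.15. After cyclic loess they were 9 and 42 at 1 h, 17 and 59 at 2 h, and 21 and 51 at 4 h. The members' median stayed below that of all genes at each of these times under each of these scalings. None of the largest LPS differences, taken by the naming rule, changed sign under either scaling. As a gauge of RNA quality, the Actb control probed at its 3′ end exceeded that probed at its 5′ end by 3.11, 2.61, 2.52 and 2.30 on the KO arrays of 0, 1, 2 and 4 h and 2.64, 2.35, 2.43 and 2.16 on the WT arrays. For the Gapdh control the excess was 3.31, 2.95, 3.04 and 2.90 (KO) and 3.01, 2.99, 3.16 and 2.98 (WT), without a steady decline. The log2 of the summed levels of 5 neutrophil markers was 10.55 to 11.96 after LPS, against 10.43 to 10.60 at 0 h. Of the 5, 3 lay above background on all arrays, and the brightest genes weigh most in such a sum. The part of either in these counts was not tested.

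**Figure D2:**
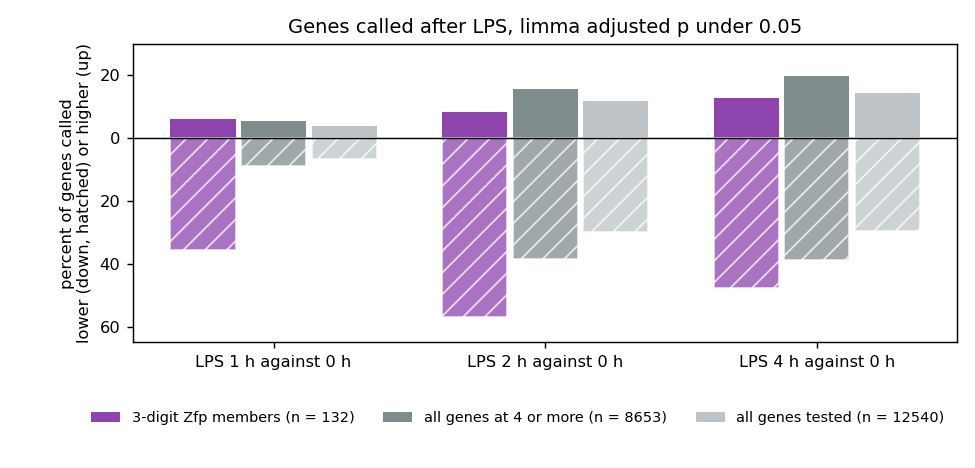
Percent of genes called higher (plain bars, up) and lower (hatched bars, down) at 1, 2 and 4 h of LPS against 0 h, for the 132 members, the 8653 genes at 4 or more and all 12540 genes tested. The members' lower share was 35.6% at 1 h, 56.8% at 2 h and 47.7% at 4 h, against 6.62%, 29.8% and 29.4% of all genes tested.

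Some members fell later than 1 h. Zfp704 read 5.20, 4.29, 3.02 and 3.17 (KO) and 5.67, 5.36, 3.53 and 2.94 (WT) at 0, 1, 2 and 4 h. Its WT array of 1 h lay between the 0 h arrays, and all 4 arrays of 2 and 4 h lay below all others. It was 5.19-fold lower at 4 h (log2 difference -2.38, SE 0.28, adjusted p = 0.000806), and its 1 h difference of -0.61 did not pass (adjusted p = 0.242). Zfp251 read 6.86, 5.37, 4.72 and 6.13 at 0, 1, 2 and 4 h in KO macrophages, and 7.21, 6.06, 4.58 and 5.49 in WT. Both 2 h arrays were its lowest, 5.23-fold below 0 h (log2 difference -2.39, SE 0.30, adjusted p = 0.00154). Zfp512 read 6.34, 5.25, 4.22 and 5.67 on the KO arrays of 0, 1, 2 and 4 h, and 6.01, 5.33, 4.04 and 5.42 on the WT arrays. The 2 h arrays were again the lowest in both genotypes (log2 difference -2.05, SE 0.13, adjusted p = 0.000141), and at 4 h it was 2.67-fold higher than at 2 h (adjusted p = 0.00111).

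Zfp710 was lowest at 2 h in both genotypes. It read 8.46, 7.90, 6.52 and 8.52 (KO) and 8.50, 7.998, 6.49 and 8.93 (WT) at 0, 1, 2 and 4 h. Its 2 h arrays lay well below the other 6, which lay within about a log2 unit of each other. It was 2.72-fold lower at 2 h than at 1 h (log2 difference -1.44, SE 0.14, adjusted p = 0.00155) and 4.66-fold higher at 4 h than at 2 h (log2 difference 2.22, SE 0.14, adjusted p = 0.000387). Zfp386, Zfp398 and Zfp810 differed by -2.17, -2.16 and -2.02 at 2 h (SE 0.17, 0.15 and 0.11), and their adjusted p-values were 0.000265, 0.000162 and 9.22e-05. At 4 h Zfp398, Zfp810 and Zfp764 differed by -1.97, -1.95 and -1.71, all past the threshold.

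Zfp703 had the opposite signs early and late. In human, ZNF703 is a transcriptional corepressor amplified in luminal breast cancer. The mouse gene read 7.89, 8.76, 7.62 and 5.64 at 0, 1, 2 and 4 h in KO macrophages, and 7.86, 8.98, 7.51 and 5.79 in WT. Both 1 h arrays lay above, and both 4 h arrays below, all others. It was 2-fold higher at 1 h (log2 difference 1.00, SE 0.12, adjusted p = 0.00507), 4.48-fold lower at 4 h (log2 difference -2.16, SE 0.12, adjusted p = 5.08e-05) and 3.61-fold lower at 4 h than at 2 h (adjusted p = 0.000455). The 1 h call was lost without the WT 0 h array and with the mean of the gene's 3 probe sets, where the adjusted p was at most 0.0736. Zfp275 also rose at 1 h by 0.59 (adjusted p = 0.0446) and fell by 4 h, by -1.10 (adjusted p = 0.000969); its 1 h call was lost without any single array, at adjusted p-values up to 0.262.

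Among the members that rose, Zfp131 moved furthest at 1 h. Its human counterpart ZNF131 is a transcription factor with a BTB domain. It read 6.68, 9.40, 9.43 and 8.43 on the KO arrays of 0, 1, 2 and 4 h, and 5.95, 8.85, 8.29 and 6.81 on the WT arrays. All arrays after LPS were above their own genotype's 0 h array, with the WT value at 4 h closest to it. The rise was 7.01-fold at 1 h (log2 difference 2.81, SE 0.25, adjusted p = 0.0014), 5.86-fold at 2 h (log2 difference 2.55, SE 0.25, adjusted p = 0.000638) and 2.47-fold at 4 h (log2 difference 1.31, SE 0.25, adjusted p = 0.00656). Without the KO 0 h array the 4 h call was lost (adjusted p = 0.0575).

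Zfp800 and Zfp719 rose and stayed high. Zfp800 read 5.19, 7.40, 8.29 and 8.11 (KO) and 5.62, 7.13, 7.92 and 8.27 (WT) at 0, 1, 2 and 4 h. Every array after LPS was above both 0 h arrays, by 3.62-fold at 1 h (log2 difference 1.86, SE 0.21, adjusted p = 0.00341) and 6.87-fold at 4 h (log2 difference 2.78, SE 0.21, adjusted p = 0.000133). Zfp719 read 4.17, 5.94, 5.45 and 5.59 at 0, 1, 2 and 4 h in KO macrophages, and 4.01, 5.83, 5.46 and 5.84 in WT, again without overlap between the 6 arrays after LPS and the 2 before it. It was 3.48-fold higher at 1 h (log2 difference 1.80, SE 0.14, adjusted p = 0.000689). Zfp945 read 5.48, 6.98, 8.07 and 7.60 on the KO arrays of 0, 1, 2 and 4 h, and 5.62, 6.47, 7.66 and 6.79 on the WT arrays. It peaked at 2 h in both genotypes, 4.97-fold above 0 h (log2 difference 2.31, SE 0.22, adjusted p = 0.000524), and its 1 h call (adjusted p = 0.0228) was lost without the WT 1 h, KO 0 h or KO 1 h array, and at an adjusted p of 0.379 with the mean of its 3 probe sets.

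Other rises began after 1 h. Zfp287, a SCAN and KRAB zinc finger gene, read 5.18, 4.90, 6.35 and 6.29 (KO) and 5.11, 5.48, 6.74 and 6.82 (WT) at 0, 1, 2 and 4 h. Its 2 h and 4 h arrays lay above all 4 earlier ones, by 2.66-fold at 4 h (log2 difference 1.41, SE 0.17, adjusted p = 0.00101). A second probe set of the gene reaching 4 moved the other way, with differences of -1.06 at 1 h, -0.94 at 2 h and -0.53 at 4 h, and the calls were lost with the mean of all 4 probe sets (adjusted p = 0.0876 at 2 h and 0.0622 at 4 h). Zfp319 read 4.03, 3.21, 4.60 and 5.40 at 0, 1, 2 and 4 h in KO macrophages, and 3.90, 3.26, 4.55 and 5.31 in WT. It was below both 0 h arrays at 1 h (log2 difference -0.73, SE 0.11, adjusted p = 0.00997) and above them at 4 h (log2 difference 1.39, SE 0.11, adjusted p = 0.000154), while another of its probe sets differed by -1.60, -1.27 and -0.08 at the 3 times. The 1 h call of Zfp319 was lost without either 0 h array or the KO 1 h array (adjusted p up to 0.0873). Zfp935 rose only at 4 h among the times tested, by 0.94 (SE 0.19, adjusted p = 0.00774), from values near background, and its probe set can match several transcripts. That call was lost without the WT 4 h or the KO 0 h array (adjusted p up to 0.0662). Zfp407 was 1.18 higher at 4 h than at 2 h (SE 0.19, adjusted p = 0.00783), and not without the WT 2 h array (adjusted p = 0.0573).

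**Figure D3:**
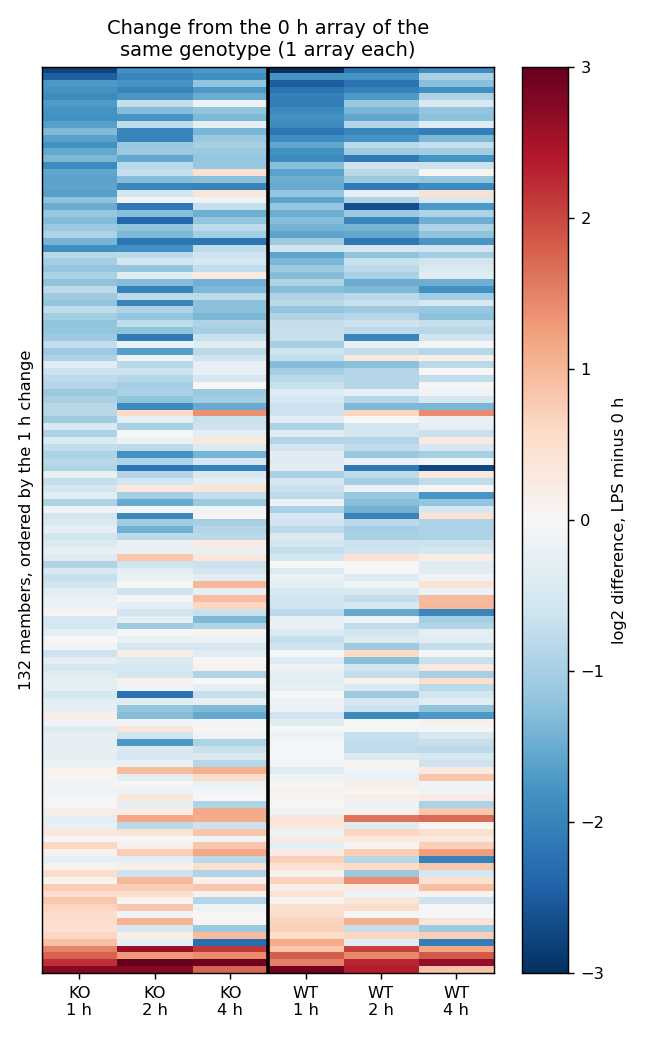
Log2 change from the 0 h array of the same genotype for the 132 members (rows, ordered by the 1 h change) on the 3 KO and 3 WT arrays after LPS; the colour scale stops at 3 in each direction. Most rows are blue at 1 h in both genotypes, with a few red rows at the bottom; 38 members were at least 2-fold lower on the KO array of 1 h and 35 on that of WT.

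Between one LPS time and the next the members moved both ways. From 1 h to 2 h, 23 members rose and 19 fell, 31.8% of the members, where 22.3% of all genes tested were called, 7.71% higher and 14.6% lower. Of genes at 4 or more 31.2% were called, 10.8% higher and 20.4% lower. From 2 h to 4 h, 24 members rose and 11 fell, 26.5% of the members, where 21.0% of all genes were called, 11.3% higher and 9.72% lower. Of genes at 4 or more 29.6% were called then, 15.8% higher and 13.8% lower. The member medians were -0.02 and 0.16, against -0.06 and 0.00 over all genes. With housekeeping centring the second split was 64 higher and 6 lower, and the median of all genes moved to 0.35. The falls from 1 h to 2 h were largest in Zfp704 (-1.55), Zfp710 (-1.44), Zfp292 (-1.39) and Zfp532 (-1.38). The rises were largest in Zfp287 (1.36), Zfp319 (1.34), Zfp945 (1.15) and Zfp568 (1.09), a KRAB gene whose mouse product represses a placental Igf2 transcript. From 2 h to 4 h, Zfp703, Zfp131, Zfp948 and Zfp326 fell most, by 1.85, 1.25, 0.98 and 0.97 on the log2 scale. The calls of Zfp704, Zfp292 and Zfp945 at 2 h against 1 h were lost on leaving out 1 of the arrays of those times (adjusted p up to 0.0746, 0.0655 and 0.082), Zfp704 without either 2 h array, Zfp292 without either 1 h array and Zfp945 without any of the 4. At 4 h against 2 h the Zfp131 call was lost without the WT 2 h, WT 4 h or KO 2 h array (adjusted p up to 0.103). The Zfp948 call was lost without any single array of 0, 2 or 4 h, with housekeeping centring and with the mean of its probe sets (adjusted p up to 0.197).

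Zfp622, Zfp598 and Zfp207 have products with known roles outside DNA binding. Zfp622 read 9.80, 10.34, 9.67 and 9.84 on the KO arrays of 0, 1, 2 and 4 h, and 9.75, 10.31, 9.68 and 9.76 on the WT arrays. The 1 h arrays were above all others, by 0.55 (SE 0.10, adjusted p = 0.0222), and the differences at 2 h and 4 h were -0.10 and 0.03 (adjusted p = 0.463 and 0.86). The 1 h call was lost without any single array of 0 h or 1 h, with the mean of its probe sets and without probe sets of shared targets (adjusted p up to 0.163). Zfp598, a ubiquitin ligase that marks collided ribosomes, read 4.40, 4.72, 4.78 and 5.25 (KO) and 4.43, 4.29, 5.08 and 4.91 (WT) at 0, 1, 2 and 4 h and rose at 4 h by 0.66 (SE 0.19, adjusted p = 0.0331), a call lost without any single array of 0 h or 4 h (adjusted p up to 0.194). Zfp207 (BuGZ), which loads the checkpoint protein Bub3 onto kinetochores, read 7.33, 7.53, 7.55 and 8.46 at 0, 1, 2 and 4 h in KO macrophages, and 7.77, 7.63, 7.90 and 8.59 in WT. The 4 h arrays were its highest in each genotype (log2 difference 0.97, SE 0.13, adjusted p = 0.00139). Its 4 other probe sets that reached 4 gave differences of -0.08, -0.21, 0.08 and 0.58 at 4 h, and with the mean of all its probe sets the call was lost (adjusted p = 0.211).

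Zfp326 and Zfp106 are linked to RNA processing and were lowest at 4 h. Zfp326, which in human is part of a complex that links RNA polymerase II to splicing, read 7.74, 7.25, 7.48 and 6.39 on the KO arrays of 0, 1, 2 and 4 h, and 7.18, 6.93, 7.04 and 6.18 on the WT arrays, with both 4 h arrays the lowest (log2 difference -1.18, SE 0.12, adjusted p = 0.000533). Zfp106, an RNA-binding protein needed by motor neurons, read 9.17, 9.14, 8.92 and 8.25 (KO) and 8.92, 8.97, 8.77 and 7.97 (WT) at 0, 1, 2 and 4 h, and again both 4 h arrays were lowest (log2 difference -0.94, SE 0.10, adjusted p = 0.000654). Another Zfp106 probe set reaching 4 gave 0.59 at 4 h, the opposite sign, and with the mean of its probe sets the call was lost (adjusted p = 0.447). Zfp451, whose human counterpart is a SUMO ligase, read 5.96, 6.03, 6.96 and 6.09 at 0, 1, 2 and 4 h in KO macrophages, and 5.47, 6.17, 6.90 and 5.95 in WT and was highest at 2 h in both genotypes (log2 difference 1.21, SE 0.16, adjusted p = 0.00198).

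Zfp281, Zfp148, Zfp263, Zfp217 and Zfp809 are known as regulators of transcription. Zfp281, a GC-box binding repressor required in mouse embryonic stem cells, read 8.55, 8.65, 9.30 and 9.68 on the KO arrays of 0, 1, 2 and 4 h, and 8.13, 8.37, 8.87 and 9.38 on the WT arrays. Within each genotype the values of 2 h and 4 h were above those of 0 h, by 0.74 (adjusted p = 0.00253) and 1.19 (SE 0.11, adjusted p = 0.000268). Its relative Zfp148 (ZBP-89) fell at 2 h by -0.60 (SE 0.18, adjusted p = 0.0355), a call lost under either other scaling and without the WT 2 h, KO 0 h or KO 2 h array (adjusted p up to 0.215). Zfp263 rose at 1 h (0.58, adjusted p = 0.0402) and 2 h (1.06, adjusted p = 0.00133) and differed by 0.22 at 4 h (adjusted p = 0.223). Its 1 h call was lost without any single array of 0, 1 or 2 h (adjusted p up to 0.251). Zfp217, whose human counterpart works with histone demethylase LSD1 and CoREST, had differences of -0.35, 0.38 and -0.18 at 1, 2 and 4 h, none past the threshold (adjusted p = 0.224, 0.0905 and 0.392). Zfp809, a KRAB protein that recruits Trim28 to silence murine leukaemia virus in mouse embryonic cells, read 4.60, 3.43, 3.39 and 3.62 (KO) and 4.24, 3.55, 3.44 and 3.41 (WT) at 0, 1, 2 and 4 h. All 6 arrays after LPS were below both 0 h arrays, by -0.93, -1.0 and -0.91 at 1, 2 and 4 h (adjusted p = 0.0131, 0.00284 and 0.0033). Zfp809 reached 4 only on the 0 h arrays, so by the member rule its values after LPS had to be lower. The 1 h call was lost without the KO 0 h or KO 1 h array (adjusted p up to 0.0945) and the 4 h call with housekeeping centring (adjusted p = 0.148).

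Of the other members of highest mean, Zfp655 and Zfp384 were lower at 2 h and 4 h. Zfp655, whose human counterpart binds the signalling protein VAV, read 10.13, 9.76, 9.57 and 9.20 at 0, 1, 2 and 4 h in KO macrophages, and 9.92, 9.64, 9.21 and 8.93 in WT, below 0 h at 2 h (log2 difference -0.64, SE 0.11, adjusted p = 0.00528) and 4 h (log2 difference -0.96, SE 0.11, adjusted p = 0.000766). Its 2 h call was lost with housekeeping centring and with the mean of its probe sets (adjusted p up to 0.111). Zfp384 (NMP4), known as a regulator in bone cells, differed by -0.45 and -0.45 (adjusted p = 0.0238 and 0.0221), and both calls were lost under either other scaling and without either 0 h array, among others (adjusted p up to 0.331 and 0.169). The low-level members Zfp579 and Zfp637 were at or below background on both arrays of 1 h and of 2 h. Zfp579 was at least 3.04-fold lower at 1 h and at least 2.80-fold lower at 2 h, and Zfp637 at least 1.62-fold and 1.49-fold, all past the threshold. Zfp579 reached 4 only on the 0 h arrays, so by the member rule its values after LPS had to be lower. The calls of Zfp637 were lost with housekeeping centring and without either 0 h array, among others (adjusted p up to 0.206 at 1 h and 0.0863 at 2 h).

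Members standing next to each other in the genome were compared, using the gene order of RefSeq on GRCm38.p6. Chromosomes 7 and 17 carried 21 members each and chromosome 8 carried 14. With at most 5 protein-coding genes between neighbours, 8 runs of at least 3 members held 37 of them. Those described were chosen after their values were seen. Of all members 35.6%, 56.8% and 47.7% fell at 1, 2 and 4 h, against 6.62%, 29.8% and 29.4% of all genes tested. At 4 h 12.9% of all members and 14.4% of all genes tested rose. One run on chromosome 17 held Zfp871, Zfp799, Zfp472, Zfp952, Zfp763 and Zfp563. At 1 h, 5 of these 6 fell, with a median difference of -1.58 and a range of -3.07 to -0.69, and at 2 h and 4 h 5 and 4 of them fell. The larger run on that chromosome, of 12 members, held Zfp945 beside genes that fell. In it 4 members fell and 1 rose at 1 h, with a median of -0.55, and 8 fell and 1 rose at 2 h, with a median of -0.72. These medians were near those of all members, -0.52 at 1 h and -0.66 at 2 h. On chromosome 6, Zfp398, Zfp212 and Zfp746 all fell at 1 h, by 1.12 to 1.68 on the log2 scale, and at 2 h. Of Zfp868, Zfp869 and Zfp866 on chromosome 8, none was called at any LPS time against 0 h. On chromosome 18, Zfp236, Zfp516 and Zfp407 held no fall at any of these times and 2 of them rose at 4 h. Probe sets of duplicated neighbours may share targets, which was not tested; over the 110 members whose probe set carries no suffix for shared targets, 39 fell and 6 rose at 1 h.

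Where a called member had further probe sets reaching 4, most moved the same way. At 1 h, 15 of 16 had the sign of the probe set used, the exception being Zfp945. At 2 h, 30 of 33 did, with exceptions in Zfp287, Zfp319 and Zfp655, and at 4 h 19 of 25 did, with exceptions in Zfp106, Zfp207, Zfp236, Zfp287 and Zfp319.

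Related zinc finger families were set beside the members. Of the 17 Zfp genes with 1 or 2 digits at 4 or more, 12 fell and 1 rose at 1 h, 10 and 1 at 2 h, and 9 and 1 at 4 h. Of 28 Zbtb genes, which join zinc fingers to a BTB domain, 10 fell and 2 rose at 1 h, 12 and 2 at 2 h, and 14 and 3 at 4 h. Of 8 Zscan and Zkscan genes, 3 fell at each time, and 0, 0 and 1 rose. Of all genes at 4 or more, 8.76%, 38.5% and 38.7% were lower at 1, 2 and 4 h, and 5.51%, 15.5% and 19.7% higher. The three-digit Zfp genes under the threshold gave fewer calls than the members: of 83 tested, 13 fell and 0 rose at 1 h, 19 and 0 at 2 h, and 15 and 3 at 4 h. Their shares lower were 15.7%, 22.9% and 18.1%, against 6.62%, 29.8% and 29.4% of all genes tested. Of those tested genes 8653 reached the threshold, and no share was computed for other genes below it. Differences between these families were not tested.

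Of the machinery that KRAB proteins recruit, 14 listed genes were measured. At 1 h 1 of them fell and 1 rose, at 2 h 7 fell and 2 rose, and at 4 h 5 fell and 4 rose. The shares called were 14.3%, 64.3% and 64.3% at 1, 2 and 4 h, near the 14.3%, 54.1% and 58.3% of all genes at 4 or more. Trim28 read 9.93, 9.63, 9.21 and 9.80 on the KO arrays of 0, 1, 2 and 4 h, and 10.03, 9.72, 9.02 and 9.74 on the WT arrays. Both 2 h arrays were its lowest, by log2 difference -0.86, SE 0.12, adjusted p = 0.00233. Setdb1 read 5.51, 4.96, 3.98 and 4.75 (KO) and 5.59, 5.21, 3.73 and 4.78 (WT) at 0, 1, 2 and 4 h, with its lowest values also at 2 h (log2 difference -1.69, SE 0.14, adjusted p = 0.000354). Dnmt1, the maintenance DNA methyltransferase, read 10.66, 10.38, 8.62 and 8.22 at 0, 1, 2 and 4 h in KO macrophages, and 10.89, 10.64, 8.91 and 8.42 in WT, lower on all 4 arrays of 2 h and 4 h than on the others (log2 difference -2.46, SE 0.10, adjusted p = 1.8e-05 at 4 h). Chd4, a remodelling ATPase of the NuRD complex, rose at 1 h (log2 difference 0.96, SE 0.19, adjusted p = 0.0301).

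The members' response was also set out for each genotype by itself, as values without a test since each rests on 2 arrays. At 1 h, 38 members (28.8%) were at least 2-fold lower on the KO array and 35 (26.5%) on the WT array, where 2.11% of all genes tested were so on the KO array and 3.32% on the WT array. At 2 h the counts were 44 in KO and 41 in WT, where 12% of all genes were at least 2-fold lower in KO and 10.6% in WT. At 4 h they were 35 in KO and 32 in WT, where 13.3% of all genes were so in KO and 13.4% in WT. At least 2-fold higher were 4, 6 and 9 members in KO and 4, 7 and 6 in WT at 1, 2 and 4 h, where 2.65%, 5.76% and 7.76% of all genes were so in KO and 2.67%, 5.73% and 8.07% in WT. The medians were -0.52, -0.58 and -0.55 in KO and -0.55, -0.70 and -0.51 in WT.

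Between genotypes the share of members called was near that of all genes tested and below that of genes at 4 or more. With time as a block, 9 members were higher and 7 lower in KO, 12.1% of the members, where 13.5% of all genes tested and 18.1% of those at 4 or more were called (4.75% of all genes higher and 8.72% lower). The members' median difference was 0.01, against -0.04 over all genes. Cyclic loess gave 11 members higher and 5 lower in KO, and housekeeping centring 4 higher and 12 lower, with the median of all genes at -0.11. The 9 resident peritoneal macrophage markers were all above background on every array. The log2 of their summed levels was 13.67 to 13.91 on the KO arrays, against 12.06 to 12.64 on the WT arrays. Of 9 mesothelial and stromal markers it was 8.79 to 9.38 on the KO arrays, against 10.41 to 10.84 on the WT arrays, with Msln and Krt19 above background on none. Of 3 T cell markers measured, Cd3g was above background on none. The log2 of their summed levels was 5.95 to 6.65 on the KO arrays, against 5.41 to 5.69 on the WT arrays. For 5 mast cell markers it was 5.36 to 5.50 on the KO arrays, against 5.73 to 6.56 on the WT arrays, with Mcpt4 above background on none. For 5 neutrophil markers it was 10.60 to 11.96 on the KO arrays, against 10.43 to 11.81 on the WT arrays. Among them S100a9 read 6.77 to 8.02 on the KO arrays, against 3.58 to 5.18 on the WT arrays. Ngp was also higher in KO at each time, and S100a8, Camp and Mpo differed less than S100a9. In such mixed RNA, fewer cells of a type and less RNA per cell cannot be told apart, and the part of these markers in the differences below was not tested.

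Zfp507 had the largest genotype difference among the members called. Zfp507 read 5.92, 5.03, 4.90 and 5.95 on the KO arrays of 0, 1, 2 and 4 h, and 4.50, 3.83, 3.62 and 4.45 on the WT arrays. Every KO array lay above every WT array, and in both genotypes the values were lowest at 1 h and 2 h. It was 2.55-fold higher in KO (log2 difference 1.35, SE 0.08, adjusted p = 0.000505), with differences of 1.42, 1.20, 1.28 and 1.50 at 0, 1, 2 and 4 h. Zfp697 read 4.28, 5.02, 5.01 and 5.09 (KO) and 3.50, 3.64, 3.75 and 4.39 (WT) at 0, 1, 2 and 4 h. The KO array was higher at each time, although the KO value at 0 h lay below the WT value at 4 h. The difference was 2.04-fold (log2 difference 1.03, SE 0.14, adjusted p = 0.00766). Of the 16 members called, these 2 kept the call under all 16 alternatives tried.

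Zfp131 was higher in KO at each time, by 0.73, 0.55, 1.14 and 1.61 at 0, 1, 2 and 4 h (log2 difference 1.01, SE 0.18, adjusted p = 0.0182). Its call was lost without the 0 h or the 2 h array of either genotype, at adjusted p-values up to 0.074. Zfp462, a large protein that binds heterochromatin protein 1, differed by 0.67 (SE 0.11, adjusted p = 0.0135), a call lost with the mean of its probe sets and without any single array of 0 h or 4 h (adjusted p up to 0.0665). The remaining calls for KO above WT were smaller, at 0.43 for Zfp991, 0.38 for Zfp326, 0.36 for Zfp281, 0.35 for Zfp638, whose human counterpart takes part in silencing unintegrated retroviral DNA, and 0.34 for Zfp110 (NRIF), a neurotrophin receptor interactor. The adjusted p-values of these 5 lay between 0.0312 and 0.0407. Each of these 5 was lost on leaving out any single array and under housekeeping centring.

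**Figure D4:**
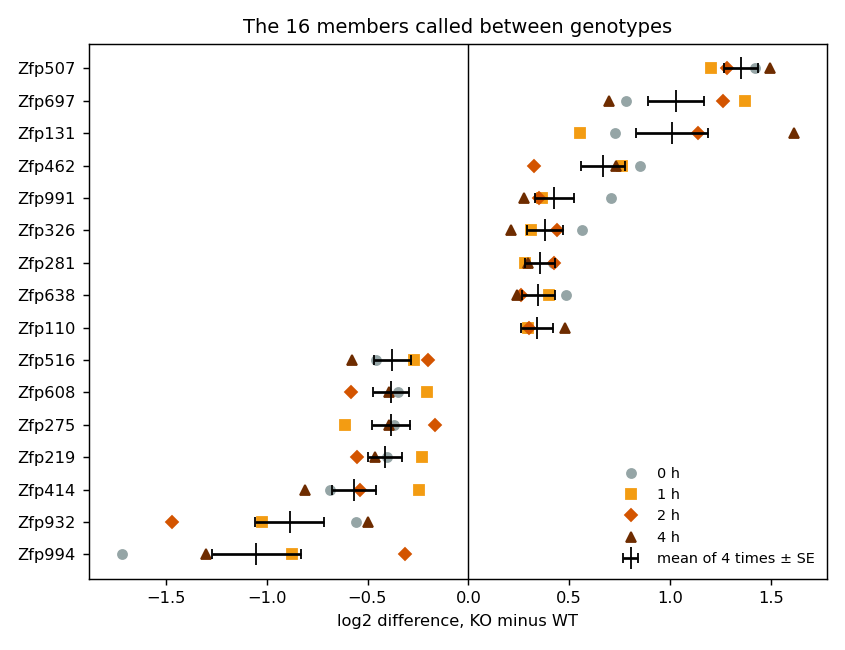
Log2 difference, KO minus WT, of the 16 members called between genotypes, with a symbol for each of the 4 times (1 array per genotype) and the mean over times with its limma SE. Zfp507 stands between 1.20 and 1.50 at all 4 times, and Zfp994 between -1.72 and -0.31 as measured, with 3 of its KO values at or under background.

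On the lower side, Zfp994 read 3.18, 3.06, 3.14 and 3.10 at 0, 1, 2 and 4 h in KO macrophages, and 4.90, 3.93, 3.45 and 4.40 in WT. All KO arrays lay below all WT arrays, 3 of the 4 KO values at or under background. Zfp994 reached 4 only on the WT arrays of 0 h and 4 h, so by the member rule its KO values at those times had to be lower. The difference was -1.05 (SE 0.22, adjusted p = 0.0292). With those 3 values raised to background KO was at least 2.01-fold lower on average; the log2 difference was then -1.72 at 0 h, and -0.83, -0.24 and -1.23 were bounds at 1, 2 and 4 h. Zfp932 read 5.38, 4.30, 3.73 and 4.58 on the KO arrays of 0, 1, 2 and 4 h, and 5.94, 5.32, 5.20 and 5.08 on the WT arrays, lower in KO at each time, with overlap across times (log2 difference -0.89, SE 0.17, adjusted p = 0.0237). Zfp414 differed by -0.57 (SE 0.11, adjusted p = 0.0236). Zfp219, a partner of Sox9 in mouse cartilage cells, Zfp275, Zfp608, a repressor of Rag genes in mouse thymocytes, and Zfp516, an activator of Ucp1 in mouse brown fat, were lower by 0.41, 0.38, 0.38 and 0.38 on the log2 scale. Each of these 7 calls was lost when any of several single arrays was left out, at adjusted p-values up to 0.107 for Zfp994, 0.0617 for Zfp932, 0.101 for Zfp414 and 0.11 for Zfp219. The highest adjusted p over all alternatives was 0.146 for Zfp275, 0.138 for Zfp608 and 0.58 for Zfp516, and the calls of Zfp275 and Zfp516 were lost under cyclic loess too.

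Few members differed 2-fold between genotypes at any single time, and they are named here after their values were seen. At 0 h Zfp507 and Zfp950 were at least 2-fold higher and Zfp994 at least 2-fold lower in KO, where 2.08% of all genes were higher and 1.70% lower by that much. At 1 h Zfp507 and Zfp697 were higher and Zfp469, Zfp704 and Zfp932 lower (2.02% and 1.35% of all genes). At 2 h Zfp131, Zfp383, Zfp507 and Zfp697 were higher and Zfp369, Zfp932 and Zfp942 lower (1.97% and 2.84%). At 4 h Zfp131, Zfp507 and Zfp950 were higher and Zfp821 and Zfp994 lower (1.67% and 2.20%).

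The members of the ZMYND8 zinc finger complex were set beside Zmynd8 itself, because that gene differed strongly between genotypes. In human cells ZMYND8 joins ZNF592, ZNF687 and ZNF532 at chromatin. Zmynd8 read 4.98, 4.68, 3.75 and 3.78 (KO) and 7.97, 7.92, 6.48 and 6.22 (WT) at 0, 1, 2 and 4 h. Every KO array lay below every WT array (log2 difference -2.85, SE 0.14, adjusted p = 0.00019). Zfp592 read 4.84, 4.14, 4.63 and 4.50 at 0, 1, 2 and 4 h in KO macrophages, and 4.87, 4.69, 4.49 and 4.73 in WT, with a genotype difference of -0.17 (adjusted p = 0.395), and Zfp532 read 4.39, 4.56, 3.10 and 2.86 on the KO arrays of 0, 1, 2 and 4 h, and 5.14, 4.53, 3.23 and 3.41 on the WT arrays, with a difference of -0.35 (adjusted p = 0.153). Zfp532 fell in both genotypes, at least 2.89-fold at 2 h, where both arrays were at background or below (adjusted p = 0.00155), and by -1.63 at 4 h (adjusted p = 0.00102). Zfp687 was above background on 0 arrays.

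Whether LPS changed the genotype difference was tested with the after-LPS arrays pooled. By limma 0 members passed and 9 had an unadjusted p under 0.05, as 0 of 12540 genes passed and 434 had such a p. That model left few residual degrees of freedom, so 0 calls do not show that the genotype difference was unchanged. The members of smallest p with a more positive KO minus WT difference after LPS were Zfp395 (1.03, SE 0.26), Zfp579 (0.59, SE 0.18) and Zfp945 (0.71, SE 0.24). Zfp395 was below background on the WT arrays of 2 h and 4 h. Zfp579 was at or below background on both arrays of 1 h and of 2 h. The estimates for Zfp395 and Zfp579 thus rest in part on background readings. Members with a more negative difference after LPS were Zfp866 (-0.82, SE 0.21), Zfp287 (-0.56, SE 0.20) and Zfp148 (-0.55, SE 0.21). Zfp866 read 5.08, 3.96, 4.11 and 3.96 (KO) and 4.08, 3.69, 3.83 and 3.96 (WT) at 0, 1, 2 and 4 h, with the KO array of 0 h above the other 7.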

How the data were processed

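RNA of 8 macrophage samples was hybridised to 1 Affymetrix array each. The deposited log2 values for 45101 probe sets were made by the authors with RMA, per the submitters' processing notes, which name no version. RMA makes the arrays' distributions alike, so a change in total mRNA would not be seen; array medians lay between 3.14 and 3.21 and correlations between arrays between 0.93 and 0.99. Genes were named from the platform annotation, by 34945 probe sets with 1 symbol, and kept where the second-highest array reached 3.16, the median of all values, which left 12540 genes. limma 3.58.1 in R 4.3.3 fitted time and genotype as additive terms, and a second model added genotype by after-LPS. With 1 array per group, p-values (two-sided, Benjamini-Hochberg over all 12540 genes, threshold 0.05) measure the spread left after genotype and time, and precision is limited by there being 8 arrays. The fits were tested on simulated data, with recovery required for the 1 h and the genotype contrasts and not for the changed genotype difference.

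The members and lists were chosen with earlier results of these data known. Named by rule were, per LPS time against 0 h, the 6 largest rises and 8 largest falls called, the 4 each way called between LPS times, the 8 each way called between genotypes, the 3 of smallest p each way in the second model, the 6 highest and 4 lowest means, the 3 genes on each side of the level threshold, and Zfp148, Zfp143, Zfp207, Zfp217, Zfp281, Zfp592, Zfp598, Zfp622, Zfp687 and Zfp809 where members. A fall to background on both arrays is given as "at least", from the background of each array. Zc3h12a itself is not described here. A grouping of members by KRAB domain and finger number was planned and not made, since no protein sequences were used here. RefSeq promoter windows and gene order are of GRCm38.p6.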

Additional observations from a re-analysis of the deposited data

Results flagged for a closer look

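Zfp991, a member higher in KO over the 4 times, had LPS changes of opposite sign in the 2 genotypes. Its log2 values were 8.78, 8.72, 8.72 and 8.64 at 0, 1, 2 and 4 h on the KO arrays and 8.07, 8.36, 8.37 and 8.37 on the WT arrays. All 3 KO arrays after LPS were below the KO array of 0 h, and all 3 WT arrays after LPS were above the WT array of 0 h. The LPS change averaged over the 3 times was 0.38 lower in KO than in WT (-0.38 on the log2 scale). By limma with the after-LPS arrays pooled this difference did not pass (SE 0.19, adjusted p = 1), and each genotype rests on 1 array at 0 h.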

How the results depend on the processing

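No pairing by replicate was possible because each genotype and time has 1 array and the labels give no replicate numbers. The additive model did compare KO with WT within each time, and the times within each genotype. Members were called 55 times at 1 h, 86 at 2 h and 80 at 4 h against 0 h, 42 times at 2 h against 1 h, 35 at 4 h against 2 h and 16 between genotypes. With an added 2-fold minimum the counts were 35, 48, 41, 14, 9 and 4. Housekeeping centring gave 70 calls at 4 h against 2 h. The other scalings, filters, probe set choices, eBayes settings and the level threshold of 5 kept the remaining counts within 1.5 times. At 1, 2 and 4 h against 0 h the 107 members reaching 4 on 2 LPS arrays did so too. Leaving out 1 array gave 31 to 52 calls at 1 h, 68 to 86 at 2 h, 57 to 83 at 4 h, 16 to 44 at 2 h against 1 h, 13 to 33 at 4 h against 2 h, 4 to 9 between genotypes and 0 to 0 for the changed genotype difference. The 1 h count was 31 without either 0 h array. The count at 2 h against 1 h was 22, 25, 20 and 16 without the WT 1 h, WT 2 h, KO 1 h and KO 2 h array. At 4 h against 2 h it was 18, 19, 13 and 15 without the WT 2 h, WT 4 h, KO 2 h and KO 4 h array. Between genotypes it was 4, 9, 4 and 5 without an array of 0, 1, 2 or 4 h. The Zfp287 change in genotype difference of -0.56 reversed to 0.00698 with the mean of all its probe sets. The changed difference could not be fitted without a 0 h array. Of 79 values for members named by rule, 49 kept direction and status, called or not called, under every alternative tried. Those for the changed genotype difference were never called. All member calls were also followed under every alternative other than the 2-fold minimum. Kept were 23 of 55 at 1 h, 54 of 86 at 2 h and 32 of 80 at 4 h against 0 h. Between LPS times 11 of 42 were kept at 2 h against 1 h and 9 of 35 at 4 h against 2 h, and between genotypes 2 of 16. Signal limits the weaker members, since 113 of the 132 were above background on all 8 arrays; the causes of the other changes were not tested.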
